A study of Mus musculus with 9 samples.

Results

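Alternative activation is the state that macrophages enter when interleukin-4 or interleukin-13 binds the interleukin-4 receptor alpha chain and the transcription factor STAT6 is phosphorylated. In mice it is marked by secreted resistin-like and chitinase-like proteins, arginase 1, C-type lectin receptors for mannose and galactose, and chemokines that draw Th2 cells and eosinophils. In the lung, resident alveolar macrophages take up inhaled particles, and macrophages of this kind have been linked to tissue repair and fibrosis. Described here are 10 genes of that programme, chosen by symbol from the 55359 gene rows of an RNA-seq table of mouse lung: the receptor chain Il4ra, the secreted Retnla, Chil3 and Chil1, the enzyme Arg1, the lectins Mrc1, Mgl2 and Clec10a, and the chemokines Ccl17 and Ccl24. Each of the 10 symbols had 1 row. Of these 10 genes, 9 reached 1 FPKM in at least 3 libraries and were tested among 15459 genes. Ccl24 did not pass.

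The study asked how atractylenolide III (ATL-III), a sesquiterpene lactone from Atractylodes rhizomes, acts in silicosis, with EGFR, mTOR and autophagy named in its title. The Silica + ATL-III group received 5 mg of silica into the trachea and 30 mg/kg ATL-III a day by intraperitoneal injection. The Silica group received 5 mg of silica, and the Control group received saline into the trachea. All mice were male C57BL/6J, 6 to 8 weeks old at the start, with lungs taken on day 28. The labels describe 20 mice a group, of which 3 libraries a group were analysed here. They name no ATL-III group without silica and no injected vehicle, and do not say that each library is a separate mouse, so the p-values measure the spread between these libraries, which may be partly technical. Fewer cells of a type and less RNA per cell cannot be told apart in whole lung.

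The 9 libraries held 16047175 to 17792481 counts. Lung genes were present in each, with 20530 to 30186 FPKM of Sftpc (surfactant protein C) and 34593 to 94851 FPKM of Scgb1a1 (club cell secretory protein), the lowest Scgb1a1 level being in Silica 1. FPKM scales fragment counts by gene length and by library total, so levels can be compared between genes. Macrophage genes were present too: the pan-macrophage gene Cd68 averaged 28.3 ± 4.27 FPKM in Silica + ATL-III libraries, 50.2 ± 18.2 FPKM in Silica libraries and 11.6 ± 0.841 FPKM in Control libraries (SD, n = 3 each).

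The 10 genes did not move together. Retnla, Chil1 and Mrc1 were higher in Silica than in Control libraries and lower in Silica + ATL-III than in Silica libraries. Chil3 and Ccl17 were higher than Control in both silica groups, with no call between Silica + ATL-III and Silica. Il4ra was higher in Silica + ATL-III libraries than in either other group, with no call between Silica and Control. Mgl2 was lower than Control in both silica groups, and Arg1 and Clec10a passed the test in none of the 3 comparisons.

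Between Silica + ATL-III and Silica, 1 of the 9 tested genes rose and 3 fell, where 21.2% of all tested genes were called, 11.2% as higher and 10% as lower. Between Silica + ATL-III and Control, 5 rose and 1 fell, where 15.9% of all tested genes were called, 9.14% as higher and 6.71% as lower. Between Silica and Control, 5 rose and 1 fell, where 16.9% were called, 9.11% as higher and 7.81% as lower. A call is an adjusted p under 0.05 in edgeR's quasi-likelihood test over all 15459 genes. The median log2 fold change of the 9 genes was -0.22, 0.66 and 0.90 in these 3 comparisons, in that order, beside -0.00034, -0.0099 and -0.013 for all tested genes. The comparisons share libraries, so their counts are not independent of each other. The single call of a lower gene between Silica and Control, Mgl2, was lost when any Control library, Silica 1 or Silica 3 was left out. The 3 lower calls between Silica + ATL-III and Silica became 1 without Silica + ATL-III 2, Silica + ATL-III 3, Silica 1 or Silica 3, and the 5 higher calls between Silica + ATL-III and Control became 3 without Silica + ATL-III 1 or Control 2 and 2 without Control 3.

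**Figure D1:**
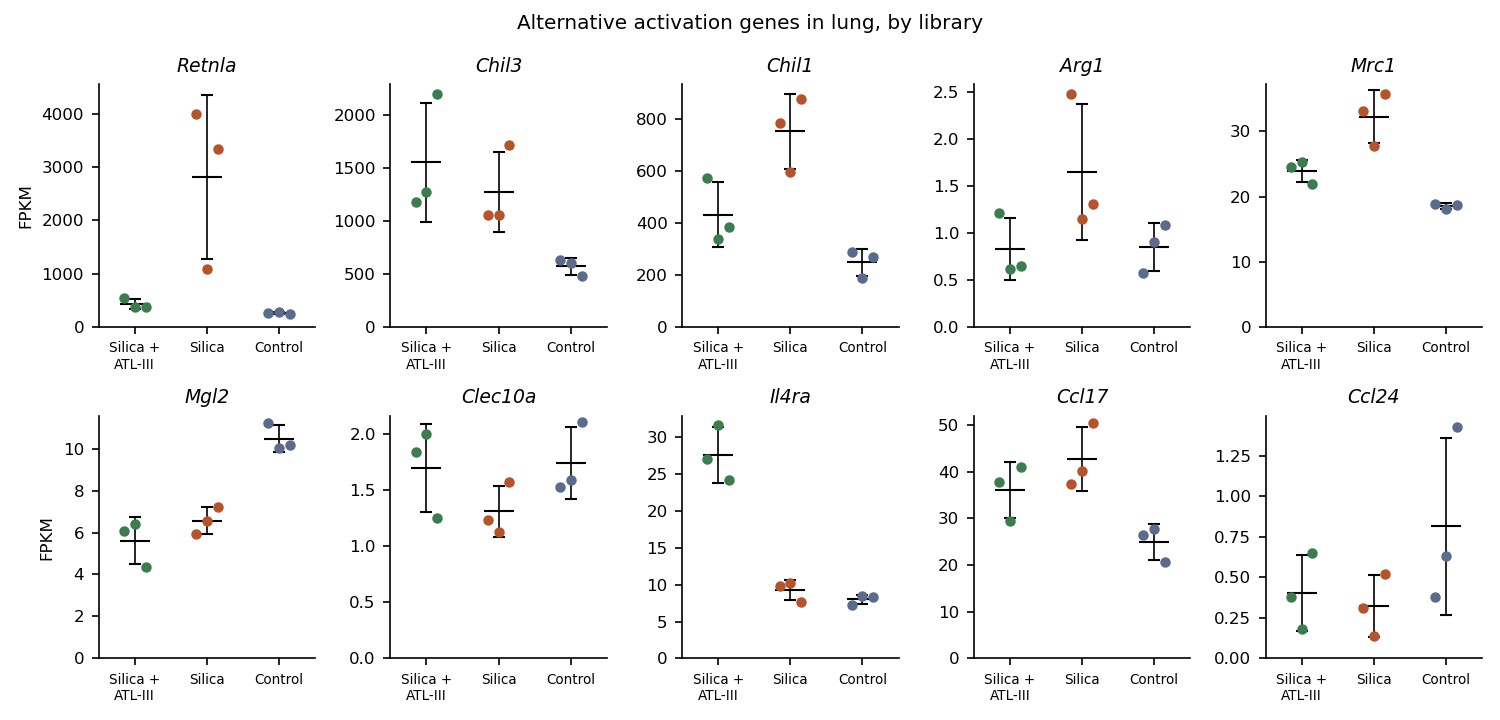
FPKM of the 10 genes on linear axes that start at 0, with 1 panel a gene, 1 point a library, a long bar for the mean and whiskers for the SD (n = 3 a group). Retnla stood at 370 to 537 FPKM in Silica + ATL-III, 1084 to 4012 FPKM in Silica and 246 to 270.3 FPKM in Control libraries, while Il4ra was highest in Silica + ATL-III and Mgl2 was highest in Control libraries.

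**Figure D2:**
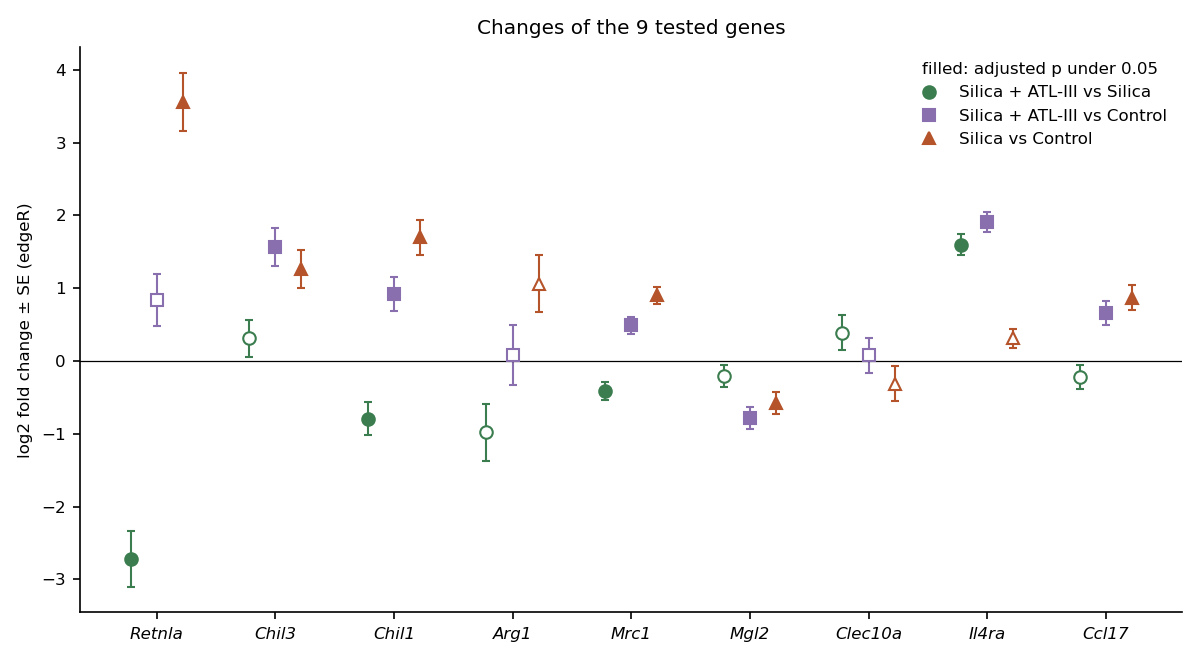
Log2 fold change with its SE for the 9 tested genes in the 3 comparisons, filled where the adjusted p was under 0.05. Retnla had the widest span of the 9, from -2.72 in Silica + ATL-III against Silica to 3.56 in Silica against Control, and Il4ra stood at 1.60 and 1.91 in both comparisons of the Silica + ATL-III group.

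STAT6 binds a palindrome with the letters TTCNNNNGAA, and other STAT proteins bind TTCNNNGAA, so the 250 bases before each gene's start were searched for both, on both strands (each motif reads the same on either strand). RefSeq promoters on GRCm38.p6 were matched by symbol for 7 of the 10 genes. Retnla held TTCNNNNGAA at -145 to -136 from its start, and Ccl17 held it at -154 to -145. Ccl17 also held TTCNNNGAA, at -99 to -91, with no overlap between its matches, and Chil3 held it at -172 to -164. TTCNNNNGAA was found in 1923 of 32851 promoter windows of this length (5.85%) and TTCNNNGAA in 2306 (7.02%). Neither was found in these windows of Chil1, Mrc1, Mgl2 and Il4ra. A match is a description of the letters, and nothing in these data measures binding. The windows of the 3 genes with a match, and that of Il4ra for comparison, are given 5′ to 3′ on the gene's strand with matches in capitals. They lie at chr16:48842359-48842608 (plus strand) for Retnla, chr8:94810203-94810452 (plus strand) for Ccl17, chr3:106167565-106167814 (minus strand) for Chil3 and chr7:125552021-125552270 (plus strand) for Il4ra.
Retnla: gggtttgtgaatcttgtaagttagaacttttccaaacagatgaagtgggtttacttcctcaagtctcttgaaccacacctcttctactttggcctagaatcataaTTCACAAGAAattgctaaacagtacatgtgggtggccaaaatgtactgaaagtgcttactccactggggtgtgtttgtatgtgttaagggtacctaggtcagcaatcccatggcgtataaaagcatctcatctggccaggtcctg
Ccl17: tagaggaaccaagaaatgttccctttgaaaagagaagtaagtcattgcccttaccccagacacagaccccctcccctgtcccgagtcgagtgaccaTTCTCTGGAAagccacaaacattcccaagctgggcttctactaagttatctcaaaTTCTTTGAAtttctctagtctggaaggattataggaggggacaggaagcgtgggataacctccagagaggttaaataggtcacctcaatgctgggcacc
Chil3: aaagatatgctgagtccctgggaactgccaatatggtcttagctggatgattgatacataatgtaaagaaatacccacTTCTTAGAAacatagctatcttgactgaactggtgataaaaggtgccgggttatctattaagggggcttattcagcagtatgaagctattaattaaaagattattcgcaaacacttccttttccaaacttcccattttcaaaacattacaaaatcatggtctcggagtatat
Il4ra: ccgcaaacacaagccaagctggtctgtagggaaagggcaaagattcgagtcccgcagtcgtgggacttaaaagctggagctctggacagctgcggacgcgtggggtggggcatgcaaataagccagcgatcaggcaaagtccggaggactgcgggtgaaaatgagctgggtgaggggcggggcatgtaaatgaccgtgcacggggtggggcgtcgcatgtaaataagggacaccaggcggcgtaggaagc

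Il4ra (ENSMUSG00000030748, chromosome 7) encodes the chain shared by the interleukin-4 and interleukin-13 receptors. It stood at 27.14, 31.70 and 24.17 FPKM in Silica + ATL-III libraries 1 to 3, against 9.80, 10.24 and 7.68 FPKM in Silica libraries and 7.30, 8.44 and 8.27 FPKM in Control libraries. All 3 Silica + ATL-III libraries were above the 6 others, and Silica and Control overlapped. Il4ra rose by a log2 fold change of 1.60 ± 0.14 (SE, adjusted p = 6.3e-05) against Silica and 1.91 ± 0.14 (adjusted p = 8.8e-06) against Control. For Silica against Control it was 0.31 ± 0.13 (adjusted p = 0.13), so the order was Silica + ATL-III first, with Silica and Control not separated by the test. Both calls of Il4ra passed under all 19 alternative settings.

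Neither ligand of the receptor was called in any comparison. Il4 averaged 3.02 ± 0.702 FPKM in Silica + ATL-III, 3.22 ± 0.676 FPKM in Silica and 3.62 ± 0.200 FPKM in Control libraries, and Il13 was not tested. The counts of Il13 summed to 0 over the Silica + ATL-III libraries, 4 over the Silica libraries and 10 over the Control libraries, and a count of 0 allows up to 3. Il33, an alarmin that acts upstream of type 2 cytokines, averaged 42.3 ± 7.98 FPKM in Silica + ATL-III, 63.8 ± 14.7 FPKM in Silica and 50.0 ± 12.6 FPKM in Control libraries, and was called in none either.

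Among the partners of the receptor, Il13ra1, which pairs with Il4ra in the type II receptor, averaged 44.3 ± 4.36 FPKM in Silica + ATL-III, 36.1 ± 4.47 FPKM in Silica and 29.7 ± 1.10 FPKM in Control libraries. It rose against Control, with a log2 fold change of 0.70 ± 0.12 (adjusted p = 0.0029). Jak3, the kinase that binds the common gamma chain of the type I receptor, averaged 13.9 ± 2.55 FPKM in Silica + ATL-III libraries and 5.49 ± 1.75 FPKM in Silica libraries, a log2 fold change of 1.37 ± 0.20 (adjusted p = 0.00093). Stat6 averaged 28.6 ± 2.15, 24.2 ± 0.810 and 27.7 ± 1.63 FPKM in Silica + ATL-III, Silica and Control libraries and was called in none of the 3 comparisons. The same held for Irf4, a transcription factor of this programme, at 0.617 ± 0.222, 0.860 ± 0.215 and 1.13 ± 0.285 FPKM.

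Across the list of 22 interleukin-4 and interleukin-13 signalling genes other than Il4ra, 15 were tested. Counts of this list and of those below stand beside the shares of all tested genes called. These were 21.2% for Silica + ATL-III against Silica, 15.9% for Silica + ATL-III against Control and 16.9% for Silica against Control. Against Silica, 2 rose in Silica + ATL-III libraries, Jak3 and Crlf2, the thymic stromal lymphopoietin receptor, whose call was lost without any single library but Silica 1. Against Control, 3 rose: Il13ra1, Crlf2 and Jak3, the last not without Control 1 or Control 2. Between Silica and Control edgeR called 0 of the 15, with 2 higher and 3 lower at an unadjusted p under 0.05. DESeq2 called 1 higher there, limma called 0, and edgeR called 2 higher and 2 lower without Silica 2 and 1 higher without Silica + ATL-III 3. The median log2 fold change of the 15 was 0.15 against Silica, -0.12 against Control and -0.10 between Silica and Control.

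**Figure D3:**
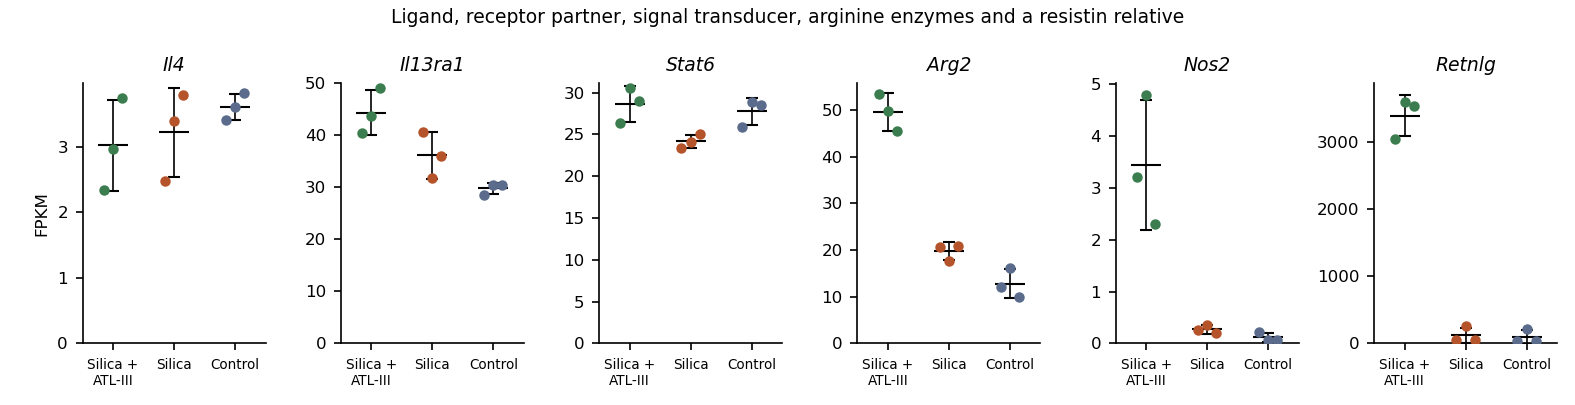
FPKM of Il4, Il13ra1, Stat6, Arg2, Nos2 and Retnlg on linear axes that start at 0, with 1 point a library, a long bar for the mean and whiskers for the SD (n = 3 a group). The Il4 groups overlapped, while Arg2, Nos2 and Retnlg were highest in all 3 Silica + ATL-III libraries.

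Retnla (ENSMUSG00000061100, chromosome 16) encodes RELM-alpha, a secreted protein of alternatively activated macrophages that lung epithelium also makes in type 2 inflammation. It stood at 537.2, 370.3 and 373.2 FPKM in Silica + ATL-III libraries 1 to 3, against 4012, 1084 and 3353 FPKM in Silica libraries and 259.6, 270.3 and 245.9 FPKM in Control libraries. No library of any group overlapped with another group, and Silica 2 was well below the other Silica libraries. Retnla fell against Silica, with a log2 fold change of -2.72 ± 0.38 (adjusted p = 0.00074), and rose by 3.56 ± 0.40 between Silica and Control (adjusted p = 0.00037). Silica + ATL-III against Control gave 0.84 ± 0.36 (adjusted p = 0.14), which was called without Silica 2, with no filter on low values or when the 6 libraries of those groups were fitted alone. The coefficient of variation was 22.4% in Silica + ATL-III, 54.5% in Silica and 4.72% in Control libraries.

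Retnlg, a resistin relative on the same chromosome that neutrophils express, was highest in Silica + ATL-III libraries. It averaged 3392 ± 303 FPKM in Silica + ATL-III libraries, 117 ± 117 FPKM in Silica libraries and 95 ± 106 FPKM in Control libraries. It rose by a log2 fold change of 4.90 ± 0.83 against Silica (adjusted p = 0.0021) and 5.29 ± 0.85 against Control (adjusted p = 0.0014). Retnlb, the gut and airway relative, did not pass the filter, with 25, 18 and 2 counts over the Silica + ATL-III, Silica and Control libraries. Retn, resistin itself, averaged 2.34 ± 0.521, 1.82 ± 0.425 and 5.75 ± 4.74 FPKM. Its lower level in Silica than in Control libraries was called, but not without Control 3, Silica 1, Silica 3 or Silica + ATL-III 1.

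Chil3 (ENSMUSG00000040809, chromosome 3) encodes Ym1, a chitinase-like lectin that macrophages and neutrophils store and secrete. It stood at 1177, 1272 and 2198 FPKM in Silica + ATL-III libraries 1 to 3, against 1053, 1056 and 1711 FPKM in Silica libraries and 628.4, 604.6 and 475.2 FPKM in Control libraries. Both silica groups were above every Control library and overlapped with each other. Against Control, Chil3 rose by a log2 fold change of 1.57 ± 0.26 in Silica + ATL-III libraries (adjusted p = 0.0020) and 1.26 ± 0.26 in Silica libraries (adjusted p = 0.011, and 0.0537 without Control 3). Between Silica + ATL-III and Silica it was 0.31 ± 0.26 (adjusted p = 0.42) and -0.04 without Silica + ATL-III 3.

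Near-identical copies make the counts of Chil3 less certain. Of all runs of 50 bases in its longest coding transcript, 29.4% also occur in other genes, 18.5% in Chil4 (Ym2). Chil4 was not tested, with 13, 0 and 8 counts in Silica + ATL-III, 7, 6 and 136 in Silica and 1, 1 and 9 in Control libraries, the highest being in Silica 3. The labels and notes used here do not state how reads shared between copies were counted.

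Chil1 (ENSMUSG00000064246, chromosome 1) encodes chitinase-like protein 1, known as BRP-39 in mice and YKL-40 in humans, made by macrophages and epithelium. It stood at 574.7, 337.9 and 383.7 FPKM in Silica + ATL-III libraries 1 to 3, against 786.6, 595.4 and 879.8 FPKM in Silica libraries and 287.4, 189.6 and 269.0 FPKM in Control libraries. The 3 groups did not overlap, with Silica + ATL-III between the others. In edgeR the log2 fold change of Chil1 was -0.79 ± 0.23 against Silica (adjusted p = 0.032), 0.92 ± 0.23 against Control (adjusted p = 0.020) and 1.70 ± 0.24 between Silica and Control (adjusted p = 0.0014). The first call was lost without Silica + ATL-III 2, Silica + ATL-III 3, Silica 1 or Silica 3 and when the 6 libraries were fitted alone. The second was lost without Silica + ATL-III 1, Control 2 or Control 3 and in limma.

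Of 8 other genes of the chitinase family 5 were tested, and 3 rose in Silica + ATL-III libraries against Silica and against Control. Chia1, acidic mammalian chitinase, averaged 107 ± 15.2 FPKM in Silica + ATL-III, 70.2 ± 11.3 FPKM in Silica and 81.6 ± 6.07 FPKM in Control libraries, a log2 fold change of 0.63 ± 0.13 against Silica (adjusted p = 0.0066). Chil5 averaged 3.81 ± 1.93, 1.04 ± 0.0950 and 0.847 ± 0.412 FPKM, and Ovgp1, oviductal glycoprotein, averaged 2.07 ± 0.262, 0.963 ± 0.346 and 1.30 ± 0.188 FPKM. Against Control the count fell to 1 without Silica + ATL-III 3, Control 1 or Control 3, where Chil5 kept its call, and in limma or by library totals or TPM scaling. For Silica against Control 0 of the 5 were called in edgeR, with 0 at an unadjusted p under 0.05 and 0 in DESeq2 and limma.

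Arg1 (ENSMUSG00000019987, chromosome 10) encodes the cytosolic arginase that gives ornithine and urea. It was low, at 1.21, 0.62 and 0.65 FPKM in Silica + ATL-III libraries 1 to 3 (44, 23 and 24 counts), against 2.48, 1.15 and 1.31 FPKM in Silica libraries (96, 43 and 52 counts) and 0.57, 0.90 and 1.08 FPKM in Control libraries (21, 32 and 39 counts). All 3 Silica libraries were above the Control libraries, and the other pairs of groups overlapped. The gene passed the filter with 5 libraries at 1 FPKM or more, 3 of them Silica. Its log2 fold change was -0.98 ± 0.39 against Silica (adjusted p = 0.094), 0.08 ± 0.41 against Control (adjusted p = 0.92) and 1.06 ± 0.39 between Silica and Control (adjusted p = 0.080). The last was called by DESeq2, without Silica 2 and with no filter, the first with no filter.

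Arg2, the mitochondrial arginase, stood higher per length and was highest in Silica + ATL-III libraries. It had 53.48, 49.77 and 45.49 FPKM in Silica + ATL-III libraries, against 20.68, 17.58 and 20.94 FPKM in Silica libraries and 12.11, 16.10 and 9.98 FPKM in Control libraries. It rose in Silica + ATL-III libraries by a log2 fold change of 1.35 ± 0.16 against Silica (adjusted p = 0.00026) and 2.08 ± 0.16 against Control (adjusted p = 1.5e-05), and between Silica and Control by 0.74 ± 0.16 (adjusted p = 0.013, not called without Control 3 or Silica 1). Nos2, the inducible nitric oxide synthase that marks classical activation and competes for arginine, averaged 3.44 ± 1.26 FPKM in Silica + ATL-III, 0.270 ± 0.0854 FPKM in Silica and 0.113 ± 0.0839 FPKM in Control libraries. Its log2 fold change was 3.68 ± 0.38 against Silica (adjusted p = 0.00014). Nos2 reached 1 FPKM in Silica + ATL-III libraries only, so it passed the filter through the group where it was high. Its low level in the other groups leaves the size of the fold change uncertain.

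Across 19 arginine genes other than Arg1, 18 were tested. Against Silica, 3 rose in Silica + ATL-III libraries (Nos2, Arg2 and Nos3) and 3 fell (Amd1, Sms and Srm, of polyamine synthesis). The lower count was at most 2 in every fit that left out 1 library. It was 0 without Silica + ATL-III 2, Silica 1 or Silica 3 and when the 6 libraries were fitted alone. The call of Srm was lost without any single library but Silica + ATL-III 1. Against Control, 5 rose (Arg2, Nos2, Odc1, Ass1 and Sat1) and 2 fell (Sms and Amd1). The higher count became 2 or 3 when Silica + ATL-III 1, any single Control library or Silica 3 was left out, and the lower count became 1 without Silica + ATL-III 1, Control 1 or Control 3. For Silica against Control 3 of the 18 rose (Arg2, Ass1 and Sat1), where 16.9% of all tested genes were called. The count was 1 without Control 2 or Control 3 and 0 without Silica 1.

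Mrc1 (ENSMUSG00000026712, chromosome 2) encodes the mannose receptor CD206, which alveolar macrophages carry at rest. It stood at 24.51, 25.32 and 21.97 FPKM in Silica + ATL-III libraries 1 to 3, against 33.19, 27.78 and 35.74 FPKM in Silica libraries and 18.88, 18.08 and 18.64 FPKM in Control libraries. The groups did not overlap, with Silica + ATL-III between the others. For Mrc1 the log2 fold change was -0.41 ± 0.12 against Silica (adjusted p = 0.026), 0.49 ± 0.12 against Control (adjusted p = 0.014) and 0.90 ± 0.12 between Silica and Control (adjusted p = 0.00092). The first call was lost without any Silica + ATL-III library, Silica 1 or Silica 3 and when the 6 libraries were fitted alone. The second was lost without Control 2 or Control 3, and with TPM scaling, where it was 0.19.

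Mgl2 (ENSMUSG00000040950, chromosome 11) encodes the galactose-type lectin CD301b, found on dermal dendritic cells as well as macrophages. It stood at 6.07, 6.42 and 4.34 FPKM in Silica + ATL-III libraries 1 to 3, against 5.93, 6.53 and 7.22 FPKM in Silica libraries and 11.22, 10.03 and 10.20 FPKM in Control libraries. Every library of both silica groups was below every Control library, and both silica groups overlapped. Mgl2 had a log2 fold change of -0.78 ± 0.15 between Silica + ATL-III and Control (adjusted p = 0.0047) and -0.21 ± 0.15 between Silica + ATL-III and Silica (adjusted p = 0.37). For Silica against Control it was -0.58 ± 0.15 (adjusted p = 0.026), with the losses named above.

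Clec10a (ENSMUSG00000000318, chromosome 11), the neighbouring galactose-type lectin CD301a, stood at 1.84, 2.00 and 1.25 FPKM in Silica + ATL-III libraries, 1.23, 1.13 and 1.57 FPKM in Silica libraries and 1.53, 1.59 and 2.11 FPKM in Control libraries. All groups overlapped. Clec10a had log2 fold changes of 0.39 ± 0.24 against Silica (adjusted p = 0.27), 0.08 ± 0.24 against Control (adjusted p = 0.86) and -0.31 ± 0.24 between Silica and Control (adjusted p = 0.38). Mgl2 and Clec10a share sequence: 16.5% of the runs of 50 bases of Mgl2 occur in other genes, 15.3% in Clec10a, and 10.6% of those of Clec10a occur in Mgl2, so their split is uncertain. The ratio of Mgl2 to Clec10a FPKM, a measure chosen after its values were seen, was 3.30, 3.21 and 3.47 in Silica + ATL-III, 4.82, 5.78 and 4.60 in Silica and 7.33, 6.31 and 4.83 in Control libraries. Two-sided exact permutation tests of this ratio gave p = 0.1 for Silica + ATL-III against either group and p = 0.2 between Silica and Control, where 0.1 is the smallest p that 3 against 3 can give.

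Of 16 other mannose and galactose lectins, 10 were tested. Against Silica, 2 rose in Silica + ATL-III libraries (Asgr1 and Cd209a) and 4 fell (Mrc2, Ly75, Clec4n and Lgals3). Against Control 1 rose (Clec4a2) and 4 fell (Mrc2, Cd209c, Pla2r1 and Cd209a). Between Silica and Control 4 rose (Ly75, Clec4n, Lgals3 and Clec4a2) and 4 fell (Cd209c, Cd209a, Pla2r1 and Asgr1). Mrc2, the Endo180 collagen receptor and the nearest listed relative of Mrc1, averaged 2.43 ± 0.131 FPKM in Silica + ATL-III, 7.03 ± 0.180 FPKM in Silica and 8.38 ± 0.995 FPKM in Control libraries. Its log2 fold change was -1.51 ± 0.11 against Silica (adjusted p = 3.4e-05) and -1.67 ± 0.11 against Control (adjusted p = 6.8e-06). The 2 higher calls against Silica became 1 without Silica + ATL-III 1, Silica + ATL-III 3, any Control library or Silica 2, and 0 without Silica + ATL-III 2 or Silica 1. The 4 lower calls between Silica and Control became 2 without Control 3 or Silica 1, and the 1 higher call against Control became 3 without Silica 1 or Silica 2.

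Ccl17 (ENSMUSG00000031780, chromosome 8) encodes TARC, a ligand of CCR4 made by dendritic cells and macrophages. It stood at 37.74, 29.51 and 40.99 FPKM in Silica + ATL-III libraries 1 to 3, against 37.34, 40.15 and 50.41 FPKM in Silica libraries and 26.42, 27.76 and 20.53 FPKM in Control libraries. Both silica groups were above every Control library and overlapped with each other. Against Control, Ccl17 rose by a log2 fold change of 0.66 ± 0.17 in Silica + ATL-III libraries (adjusted p = 0.023) and 0.87 ± 0.17 in Silica libraries (adjusted p = 0.0083). Between Silica + ATL-III and Silica it was -0.22 ± 0.17 (adjusted p = 0.38). The first call was lost without Silica + ATL-III 1, Silica + ATL-III 3, Control 1 or Control 3, in limma and with TPM scaling.

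Ccl24 (ENSMUSG00000004814, chromosome 5), eotaxin-2, a ligand of CCR3 on eosinophils, had 8, 4 and 14 counts in Silica + ATL-III, 7, 3 and 12 in Silica and 8, 13 and 30 in Control libraries. The groups overlapped, at 0.403 ± 0.236, 0.323 ± 0.190 and 0.813 ± 0.548 FPKM. Without the filter its log2 fold change was 0.34 ± 0.60 against Silica (adjusted p = 0.81), -0.85 ± 0.55 against Control (adjusted p = 0.46) and -1.18 ± 0.56 between Silica and Control (adjusted p = 0.19). The receptors Ccr4 and Ccr3 did not pass the filter either, with 32 and 31 counts over the Silica + ATL-III, 44 and 37 over the Silica and 23 and 44 over the Control libraries.

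Ccl22, the other CCR4 ligand, averaged 3.52 ± 1.64 FPKM in Silica + ATL-III, 5.86 ± 0.702 FPKM in Silica and 2.23 ± 0.310 FPKM in Control libraries. It rose in Silica against Control libraries by a log2 fold change of 1.49 ± 0.27 (adjusted p = 0.0061). Ccl11, eotaxin-1, averaged 5.71 ± 0.320, 7.18 ± 2.19 and 5.96 ± 1.54 FPKM and was called in no comparison. Of 11 listed partners of Ccl17 and Ccl24, 7 were tested. Against Silica, 1 rose in Silica + ATL-III libraries (Ccr2) and 3 fell (Ccl7, Ccl12 and Ccl2). Against Control 3 rose (Ccr2, Ccl2 and Ccl7), and between Silica and Control 5 rose (Ccl2, Ccl7, Ccl22, Ccl12 and Ccl8), and the last count was 3 without Control 2, Control 3 or Silica 1. The monocyte chemoattractant Ccl2 averaged 3.72 ± 1.36 FPKM in Silica + ATL-III, 8.45 ± 4.2 FPKM in Silica and 1.01 ± 0.0721 FPKM in Control libraries. Against Silica, the higher count became 0 without Silica 1 or Silica 3 and the lower count 0 without Silica + ATL-III 2 or Silica 1.

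Among 24 further alternative activation genes, 23 had a row and 19 were tested. Against Silica, 9 fell in Silica + ATL-III libraries and 2 rose. Between Silica and Control 10 rose and 2 fell, and between Silica + ATL-III and Control 8 rose. The median log2 fold change of the 19 was -0.57, 0.70 and 0.43 in these 3 comparisons, in that order. The 2 higher genes against Silica became 4 without Silica + ATL-III 3. The 2 lower genes between Silica and Control became 1 without Control 2, Control 3 or Silica 1, and the 8 between Silica + ATL-III and Control became 5 in limma and without Silica + ATL-III 1 or Control 2, and 4 without Control 1.

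Several of those genes were highest in Silica libraries, as Retnla was. Mmp12, macrophage elastase, averaged 12.1 ± 5.21 FPKM in Silica + ATL-III, 175 ± 109 FPKM in Silica and 1.19 ± 0.137 FPKM in Control libraries. Its log2 fold change was -3.85 ± 0.50 against Silica (adjusted p = 0.00047), 3.48 ± 0.51 against Control (adjusted p = 0.00086) and 7.32 ± 0.60 between Silica and Control (adjusted p = 6.7e-05). Ch25h, cholesterol 25-hydroxylase, averaged 8.69 ± 1.05, 16.5 ± 1.51 and 3.97 ± 0.240 FPKM, and Atp6v0d2, a subunit of the lysosomal proton pump, 36.5 ± 2.00, 103 ± 29.1 and 20.2 ± 1.56 FPKM. Both fell in Silica + ATL-III against Silica libraries (adjusted p = 0.0011 for Ch25h and 0.00046 for Atp6v0d2). The interleukin-1 receptor antagonist Il1rn and the transcription factor Egr2 fell there too, with log2 fold changes of -1.27 ± 0.26 (adjusted p = 0.0055) and -1.23 ± 0.23 (adjusted p = 0.0034). Cd163, the haemoglobin scavenger receptor, ran the other way, at 3.61 ± 0.700 FPKM in Silica + ATL-III, 1.41 ± 0.333 FPKM in Silica and 3.31 ± 0.437 FPKM in Control libraries. It rose by a log2 fold change of 1.38 ± 0.19 against Silica (adjusted p = 0.00067).

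Of 21 classical activation genes, 16 were tested. Against Silica, 4 rose in Silica + ATL-III libraries (Nos2, Fpr2, Socs3 and Il12a) and 2 fell (Tnf and Marcksl1). Against Control 6 rose (Nos2, Socs3, Fpr2, Acod1, Cd86 and Cd38), and between Silica and Control 6 rose (Cd86, Tnf, Socs3, Marcksl1, Irf5 and Acod1). The formyl peptide receptor Fpr2, which neutrophils also carry, averaged 120 ± 32.2 FPKM in Silica + ATL-III, 22.8 ± 5.80 FPKM in Silica and 19.6 ± 6.68 FPKM in Control libraries, a log2 fold change of 2.42 ± 0.25 against Silica (adjusted p = 0.00016). Tnf averaged 0.593 ± 0.397, 2.16 ± 0.416 and 0.410 ± 0.180 FPKM. The 2 lower genes against Silica became 1 without Silica + ATL-III 2, Silica + ATL-III 3, Control 1, Control 3 or Silica 3 and 0 without Silica 1. The 6 between Silica and Control became 3 without Silica 1 or Silica 3 and 2 without Control 3.

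Markers of several cell types differed between the groups along with these genes. The summed level of 16 neutrophil markers ran between 30526 and 45858 FPKM in Silica + ATL-III, 1068 and 4830 FPKM in Silica and 602 and 3924 FPKM in Control libraries. Of the 16, 14 were tested, and all 14 rose against each other group (median log2 fold change 3.62 against Silica and 4.06 against Control). A marker can pass the filter through the Silica + ATL-III libraries alone, so this count and its medians partly follow from the filter. The sum of 10 monocyte markers ran between 353 and 535 FPKM in Silica + ATL-III, 148 and 223 FPKM in Silica and 160 and 185 FPKM in Control libraries. These sums moved with Il4ra, Retnlg (itself on the neutrophil list), Arg2, Nos2 and Fpr2, all highest in Silica + ATL-III libraries. Within groups, Silica 2 and Control 2 had the highest neutrophil sums, 4830 and 3924 FPKM, while their Il4ra levels were 10.24 and 8.44 FPKM, each the highest of its group by a small margin. In the Silica + ATL-III group it was the other way: library 3 had the highest neutrophil and monocyte sums, 45858 and 535 FPKM, and the lowest Il4ra level, 24.17 FPKM. The part of these cells in the level of Il4ra was not tested.

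The sum of 13 general macrophage markers ran between 9978 and 13432 FPKM in Silica + ATL-III, 14768 and 16273 FPKM in Silica and 7580 and 9502 FPKM in Control libraries. The sum of 14 alveolar macrophage markers ran between 585 and 611 FPKM in Silica + ATL-III, 713 and 939 FPKM in Silica and 596 and 626 FPKM in Control libraries. Both were highest in Silica libraries, as were Retnla, Chil1 and Mrc1, and Silica 2 was the lowest Silica library in both sums and in those 3 genes. The sum of 12 interstitial macrophage markers was instead highest in Silica + ATL-III libraries, at 388 to 545 FPKM. It ran between 293 and 374 FPKM in Silica and 248 and 353 FPKM in Control libraries. Of these 12, 3 rose (Lyve1, Cd163 and Pf4) and 2 fell (Maf and Cx3cr1) in Silica + ATL-III against Silica libraries. The lower count was 1 without Silica + ATL-III 2 or any single Silica library. Nearly all of the general sum was Lyz2, macrophage lysozyme, at 9035 to 12431 FPKM in Silica + ATL-III, 14077 to 15485 FPKM in Silica and 7104 to 9170 FPKM in Control libraries. Between Silica + ATL-III and Silica, Lyz2 was not called in edgeR (log2 fold change -0.42 ± 0.18, adjusted p = 0.12). The median log2 fold change of the 13 general markers in that comparison was -0.0, so the general sum mainly describes 1 gene. Of the 13 general markers, 3 rose (Itgam, Fcer1g and Cd14) and 2 fell (Aif1 and Cd68) in Silica + ATL-III against Silica libraries, 8 rose against Control and 9 rose between Silica and Control. The 3 became 1 without Silica + ATL-III 1 or Silica 2 and 0 without Silica 3, and the 2 became 1 without Silica + ATL-III 2, Silica + ATL-III 3, Silica 1 or Silica 3. Of the 14 alveolar markers, 5 fell in Silica + ATL-III against Silica libraries (Slc39a2, Bhlhe41, Fabp5, Itgax and Plet1) and 2 rose (Krt79 and Cidec). Those 2 became 1 without Control 1, Silica 1 or Silica 2 and 0 without Silica + ATL-III 1 or Silica + ATL-III 2. Among the 5 that fell, the call of Plet1 was lost without any single library but Silica 2. Between Silica and Control 7 alveolar markers rose and 1 fell (Cidec), the last being 2 without Silica 3. The defining marker Siglecf was called in no comparison, at 5.18 ± 1.12 FPKM in Silica + ATL-III, 7.20 ± 1.34 FPKM in Silica and 5.32 ± 0.936 FPKM in Control libraries. Adgre1, which encodes F4/80, averaged 9.93 ± 1.06, 13.1 ± 2.94 and 7.07 ± 0.572 FPKM. The part of macrophage number in the levels of Retnla, Chil1 and Mrc1 was not tested.

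The sum of 13 dendritic cell markers ran between 45.8 and 48.9 FPKM in Silica + ATL-III, 44.7 and 62.9 FPKM in Silica and 70.2 and 76.7 FPKM in Control libraries, highest in Control libraries as Mgl2 was. Its members did not move together: of 11 tested, 2 fell in Silica + ATL-III against Control libraries (Dpp4 and Cd209a), and between Silica and Control 3 rose (Itgae, Xcr1 and Fscn1) and 3 fell (Cd209a, Dpp4 and Zbtb46), with a median log2 fold change of 0.09. The count against Control became 1 when Silica + ATL-III 1, Silica + ATL-III 3 or any single Control library was left out. Both counts between Silica and Control became 1 when any single Control library or Silica 3 was left out, and the lower count also without Silica 1. The sum of 11 Th2 and innate lymphoid markers ran between 18.6 and 23.4 FPKM in Silica + ATL-III, 30.8 and 51.9 FPKM in Silica and 27.2 and 31.5 FPKM in Control libraries, and Il13 was at 0 in all 3 Silica + ATL-III libraries. The sum of 12 alveolar type 2 cell markers overlapped across groups, at 24335 to 32136 FPKM in Silica + ATL-III, 30450 to 36152 FPKM in Silica and 23485 to 32198 FPKM in Control libraries. Of the 12, 6 fell in Silica + ATL-III against Silica libraries (Lpcat1, Cxcl15, Lamp3, Slc34a2, Cd74 and Etv5; 3 without Silica 3) and 7 rose between Silica and Control (Sftpd, Lpcat1, Cd74, Napsa, Sftpa1, Slc34a2 and Lamp3), as Retnla, Chil1 and Mrc1 did. Those 7 became 3 without Control 2 or Control 3 and 4 without Silica 1 or Silica 3. Among the 6 that fell, the call of Etv5 was lost without any single library but Silica + ATL-III 1. Eosinophils are the cells that Ccl24 draws. The sum of 8 of their markers ran between 17.7 and 29.0 FPKM in Silica + ATL-III, 35.4 and 43.8 FPKM in Silica and 6.23 and 8.71 FPKM in Control libraries, with Epx, eosinophil peroxidase, at 0 in the Silica + ATL-III libraries and at most 0.05 FPKM elsewhere. In both silica groups most of that sum was Ear6, a ribonuclease gene, at 10.55 to 22.62 FPKM in Silica + ATL-III and 27.88 to 33.78 FPKM in Silica libraries. In Control libraries Ear6 was a small part of the sum, at 0.06 to 0.13 FPKM. The larger part there was Siglecf, which is also on the alveolar macrophage list, so the sum does not describe eosinophils alone. The part of these cells in the levels of the 10 genes was not tested.

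**Figure D4:**
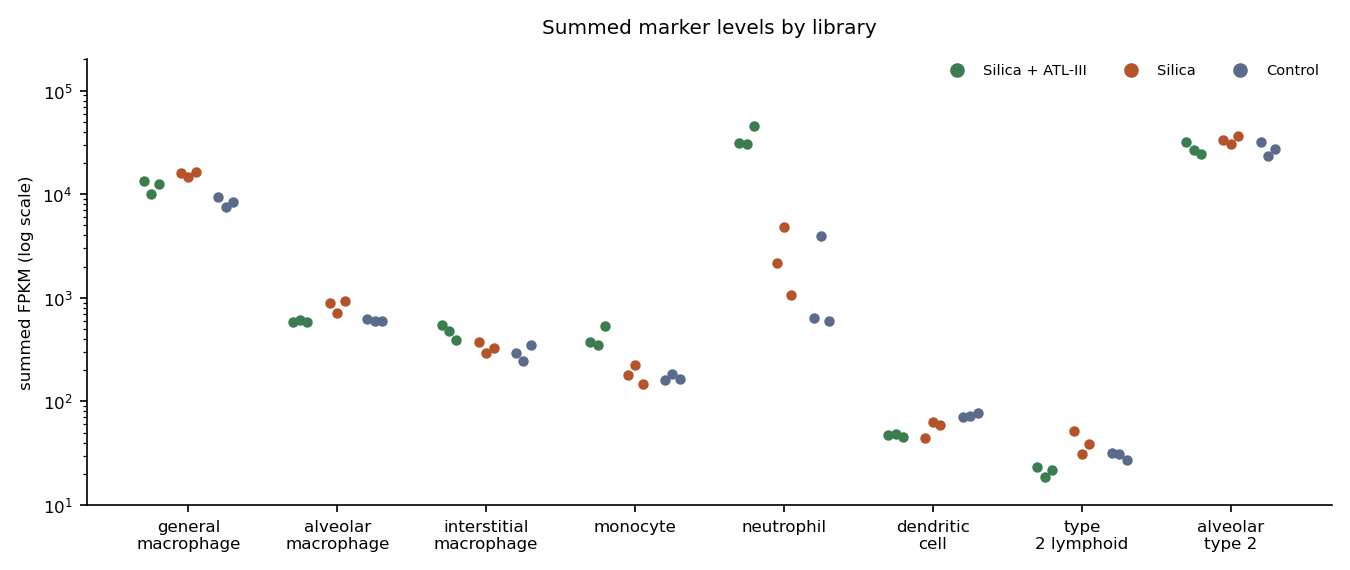
Summed FPKM of the marker genes of 8 cell types on a log axis, with 1 point a library and the 3 groups side by side. Neutrophil, monocyte and interstitial macrophage sums were highest in the 3 Silica + ATL-III libraries. General and alveolar macrophage sums were highest in the 3 Silica libraries, and dendritic cell sums were highest in the 3 Control libraries.

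The likeness of patterns was taken as the mean absolute difference between z-scores of log2 CPM (counts scaled by library total and TMM factor, prior count of 2) over the 9 libraries, where 0 is identity, and 15394 genes were searched. The nearest genes to Retnla were Myo5a (0.079), Lgmn (0.080), a lysosomal protease, and Itgax (0.083), the CD11c integrin. Those of Mrc1 were Lrrc27 (0.099), Atp6v1b2 (0.132), a proton pump subunit, and F7 (0.143), coagulation factor VII. Those of Chil1 were Proz (0.132), Lyz2 (0.146), macrophage lysozyme, and Slc29a3 (0.148). Those of Il4ra were Ifitm2 (0.082), Srgn (0.117) and Prok2 (0.123), the last a secreted peptide of neutrophils. Prok2 stood at 9.95 to 10.47 FPKM in Silica + ATL-III, at most 0.28 FPKM in Silica and 0 FPKM in Control libraries. It was therefore searched only because it passed the filter in the Silica + ATL-III group. Those of Mgl2 were Sestd1 (0.123), Mxra8 (0.154) and Lama4 (0.188), a basement membrane laminin chain. Chil3, Ccl17, Arg1 and Clec10a had no gene as near, with nearest values of 0.167 (Gstp-ps), 0.174 (Hmga1), 0.205 (Erlec1) and 0.245 (Gm33228). Among the 9 tested genes themselves, the nearest pairs were Chil1 and Mrc1 (0.252), Mrc1 and Retnla (0.280) and Chil1 and Retnla (0.307), then Chil3 and Ccl17 (0.390), and the gene nearest to Mgl2, Clec10a, stood at 0.952. All points share the same 9 libraries, so these values describe the libraries and carry no test.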

How the data were processed

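RNA-seq of mouse lung was analysed in 9 libraries, 3 a group. The table deposited by the authors holds counts and FPKM per gene and library, per the file headers. The submitters' processing notes name cutadapt 1.9.1, HISAT2 2.0.1, HTSeq 0.6.1 and mm10; no source used here states the strand setting. The deposited FPKM were checked against the counts: they follow from count, gene length and library total alone. The positions in the table were not used, only its chromosomes; promoter coordinates are RefSeq's on GRCm38.p6.

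Counts of genes with at least 1 FPKM in at least 3 libraries were fitted with edgeR 4.0.16 in R 4.3.3 (TMM factors, 3 group means, 6 residual degrees of freedom, quasi-likelihood test, Benjamini-Hochberg adjustment over all genes tested), and an SE is the log2 fold change divided by the root of F. The fit was tested on simulated counts with the same spread for all genes. Over the 3 comparisons it recovered 4.48 to 17.9% of 1.5-fold changes, 49.3 to 62.7% of 2-fold changes and 90.9 to 93.9% of 4-fold changes. A gene without a call may therefore still have changed, by 2-fold as well as by a smaller fold. The 19 alternatives comprise DESeq2 1.42.0, limma 3.58.1 on log2(FPKM + 0.5) and log2(FPKM + 0.1), other scalings, filters and designs, and 9 fits that each leave out 1 library. On the log2(FPKM + pseudocount) scale the change of low genes is understated. Shared sequence was sought as runs of 50 bases in GENCODE transcripts. Replicates differed by more than sampling noise (lowest chi-square per degree of freedom 7.06), so none was a copy.

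The genes and gene lists were chosen with earlier results of these data known. All 10 genes are named, with a fixed set of partners, up to 3 called genes a list, comparison and direction with the lowest p, further list genes in counts, and the 3 nearest patterns of each gene searched, of which 1 is given for Chil3, Ccl17, Arg1 and Clec10a. A listed gene is not reported here and was left out of its list.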

Additional observations from a re-analysis of the deposited data

How the results depend on the processing

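Over the 19 alternatives, the calls of Il4ra against both groups, Retnla in both comparisons with Silica, Chil3 and Mgl2 in Silica + ATL-III against Control, and Chil1, Mrc1 and Ccl17 in Silica against Control kept their direction and passed the threshold. The number of the 9 genes that fell in Silica + ATL-III against Silica was 3, became 1 when the 6 libraries were fitted alone, and ran between 1 and 3 when 1 library was left out. The number that rose against Control was 5, became 3 in limma at either pseudocount and with TPM scaling, and ran between 2 and 6 when 1 library was left out. The number that fell between Silica and Control ran between 0 and 1. Over all tested genes, leaving out 1 library gave 1924 to 3877 calls for Silica + ATL-III against Silica (3279 with all 9), 1474 to 2864 against Control (2451) and 862 to 3944 for Silica against Control (2615); TPM scaling gave 6118 calls for Silica + ATL-III against Control and 4177 for Silica against Control.

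Signs turned for values that were not called. The log2 fold change of Chil3 between Silica + ATL-III and Silica was -0.041 without Silica + ATL-III 3 (range without 1 library -0.041 to 0.57). That of Arg1 between Silica + ATL-III and Control was -0.035 and -0.053 in limma with pseudocounts of 0.5 and 0.1, -0.040 by library totals, -0.22 with TPM scaling, -0.0036 with the replicate block, and -0.28 and -0.13 without Silica + ATL-III 1 and Control 1 (range -0.28 to 0.29). That of Clec10a in the same comparison was -0.038 and -0.049 in limma, -0.038 by library totals, -0.22 with TPM scaling and -0.049 without Silica + ATL-III 2 (range without 1 library -0.049 to 0.27). The cause was not tested.

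Scaling moved the median gene, which was within 0.013 of 0 with TMM. For Silica + ATL-III against Silica, Silica + ATL-III against Control and Silica against Control its log2 fold change was -0.021, -0.13 and -0.11 by library totals, and -0.12, -0.31 and -0.20 with TPM scaling. In the same order 52.6, 57.6 and 53.8% of the calls were higher with TMM, 46.0, 34.6 and 33.0% by library totals, 45.3, 35.2 and 33.6% in limma, 29.8, 12.7 and 17.4% with TPM scaling and 42.5, 47.4 and 55.2% by upper quartile. With TPM scaling, 5 interleukin-4 signalling genes were called lower in Silica + ATL-III than in Control.

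Deviations of libraries with the same replicate number correlated weakly (-0.133 to 0.12 over 9 pairs, 1 over 0.1). Between Control and Silica these correlations were positive, at 0.0904, 0.12 and 0.0897 for numbers 1 to 3. Control and Silica libraries with different numbers gave -0.136 to 0.0529. All same-number pairs with a Silica + ATL-III library were negative. Such weak correlations cannot settle whether the numbers pair the libraries, and the labels name no pairing. A replicate block gave 2822 calls for Silica + ATL-III against Silica, 2109 against Control and 2120 for Silica against Control, and changed no count of the 9 genes called. With 3 libraries a group, Arg1, Clec10a and Ccl24 rest on 3 to 99 counts a library, which limits the precision of their fold changes.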
